A study of Drosophila melanogaster with 3 samples.

Results

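The genes described are the 52 protein-coding genes of Drosophila melanogaster whose symbol begins with eIF or eEF, the translation initiation and elongation factors, out of 13968 protein-coding genes on the main chromosome arms and Y. Membership was set by symbol alone, but this set of genes was chosen with earlier results of these data known. Binding of Achaete (Ac) had been mapped by ChIP-seq, the sequencing of DNA fragments pulled down with a protein, in a transgenic line, ac-GFP, that stably expresses Ac with GFP fused to its C terminus (ac-eGFP). Whole embryos of mixed sex were taken 0 to 8 hours after laying, and the fusion was pulled down with an antibody against GFP. There were 3 biological replicates of this 1 group, all carrying the tagged protein, and no second genotype, time or treatment. Whether they were separate embryo collections is not stated, so the spread over replicates may be technical. A control alignment entered the authors' peak calling, and its own signal was not analysed here. Whole embryos hold many cell types, so a summit says nothing about which cells it came from.

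Translation of an mRNA begins when eIF2 brings the initiator tRNA to the small ribosomal subunit, eIF3 holds the assembling complex, the eIF4 factors recruit the capped mRNA, and eIF1, eIF1A and eIF5 act in the choice of the start codon. The eEF factors then deliver each aminoacyl-tRNA and move the ribosome along. The core factors are used in nearly every cell, but the set was taken by symbol and also holds paralogs. Expression of the members was not measured here. Some members' promoters share features with those of ribosomal protein genes, such as the DRE (DNA replication-related element, TATCGATA), a palindrome recognised by the factor Dref. In part they also share a pyrimidine-rich initiator. Ac is a proneural basic helix-loop-helix factor that pairs with Daughterless (Da) on E-boxes such as GCAGCTG and GCAGGTG.

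The stretches below are shown because they set members with and without a summit beside each other on 1 sequence feature, the DRE. They were read from the release 6 genome (dm6) in RefSeq, on each gene's own strand from 5′ to 3′. Capitals mark each DRE, and also an E-box of the form CANNTG or a CTTT near the start where the window holds one. The first set runs from 100 bases before the annotated start to 20 bases from the start on. Its members are eEF1gamma at chr3R:29220072-29220191 (plus strand), which had 1 of the strongest summits of all members, and 2 members with none in the optimal list, eEF1delta at chr2L:10232407-10232526 (plus strand) and eIF2gamma at chr3R:15263439-15263558 (minus strand).
eEF1gamma: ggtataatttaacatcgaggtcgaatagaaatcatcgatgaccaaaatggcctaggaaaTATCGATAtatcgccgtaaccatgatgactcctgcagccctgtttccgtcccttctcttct
eEF1delta: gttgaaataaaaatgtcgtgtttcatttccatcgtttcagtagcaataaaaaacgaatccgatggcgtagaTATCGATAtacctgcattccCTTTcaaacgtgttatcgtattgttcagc
eIF2gamma: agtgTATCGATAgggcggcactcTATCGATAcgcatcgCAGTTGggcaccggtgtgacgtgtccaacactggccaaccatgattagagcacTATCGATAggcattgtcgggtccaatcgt
The second set gives the DRE with 11 bases to each side at 3 other bound members, eIF1 at chr3L:3223034-3223063 (plus strand), eIF3a at chr3R:4433915-4433944 (minus strand) and eIF2A at chr3L:21824865-21824894 (plus strand).
eIF1: ggcagggcaacTATCGATAagcatttcgta
eIF3a: tcggcctgaacTATCGATAacgcagccagg
eIF2A: ttactatcgctTATCGATAcaccgcgtaca
The DRE of eEF1gamma began 41 bases before the start and that of eEF1delta 29 bases before it, in otherwise different sequence. The window of eIF2gamma held 3 DREs, which began 96, 77 and 9 bases before the start. Of these 3 genes, eEF1gamma had an optimal summit within 500 bp, and eEF1delta and eIF2gamma had none.

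A gene was called bound when a summit of the authors' optimal list of 2756 peaks lay within 500 bp of any of the gene's own annotated transcript starts. By this rule 13 of the 52 genes (25%) were bound, against 9.01% of all protein-coding genes. Among the other protein-coding genes the share was 8.95%. Among the other genes 17.9% of the longest decile and 2.36% of the shortest were bound, so lengths were taken into account. The bound shares of the other genes in the members' length deciles gave a number of 4.7 for 52 genes, and the observed count was 2.77 times that number. Bound and unbound members had similar median lengths, 1938 bp and 1966 bp. The count of 4 of 8 members of 4033 to 6472 bp stood beside 12.2% of other genes in that decile, and 3 of 9 members of 1715 to 2164 bp beside 5.98%. In contrast, 0 of 5 members of 2165 to 2835 bp were bound beside 8.69% of other genes, 0 of 2 of 6477 to 14711 bp beside 14.4%, and 0 of 3 of 725 to 1023 bp beside 3.73%. The other deciles with members had, from short to long, 2 of 8, 2 of 8, 1 of 5 and 1 of 4 bound. Of other genes in these deciles 6.34%, 7.7%, 10.2% and 17.9% were bound. These are descriptions of 1 group with no test.

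The same count was made in each replicate on its own, in the 2756 regions with the highest signal value of its list of 30000. It was 10 members in replicate 1, where 9.11% of all protein-coding genes were bound, 11 members in replicate 2, where 8.8% were, and 9 members in replicate 3, where 8.64% were. The mean was 10 ± 1 members, or 19.2% ± 1.92 (SD, n = 3), which was 2.17 ± 0.228 times the number from the length deciles. All 3 replicates gave a higher share in the members than in the other genes, and the lowest ratio was 2.01 in replicate 3. In the full lists of 30000 regions, 24, 35 and 30 members had a summit within 500 bp of a start in replicates 1, 2 and 3, against 36.6%, 45.4% and 43% of all protein-coding genes. As shares of the 52 members these were 46.2%, 67.3% and 57.7%.

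**Figure D1:**
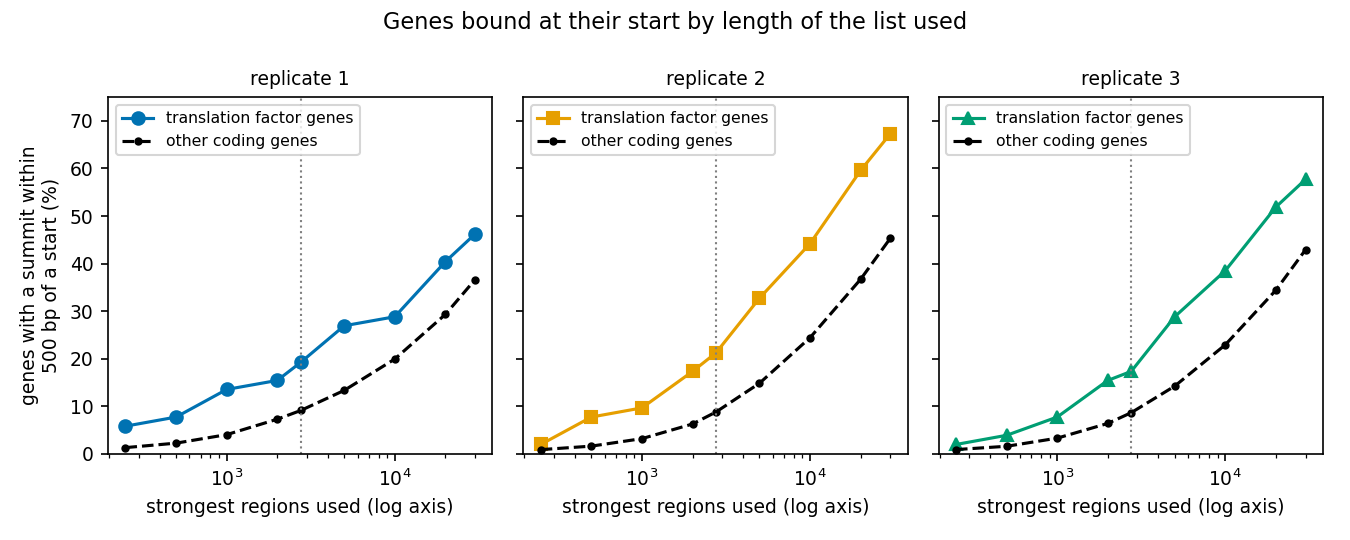
Share of genes with a summit within 500 bp of an own start (y axis, percent) against the number of strongest regions used (x axis, log scale) in each replicate, for the 52 translation factor genes (coloured) and the other protein-coding genes (black, dashed); the dotted line marks 2756 regions. The coloured line lies above the black one at every list length drawn, for example at 26.9%, 32.7% and 28.8% in replicates 1, 2 and 3 against 13.3%, 14.8% and 14.2% at 5000 regions.

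The bound members were spread unevenly over the role groups. Of the 8 eEF genes 4 were bound, and of the 10 genes of eIF2 and the other factors acting at the start codon or the joining of subunits 5 were bound, where the length deciles gave 0.709 and 0.998. Of the 16 eIF3 subunit genes 2 were bound (number from the deciles 1.2), of the 13 eIF4 genes 2 (1.45), and of the 5 genes of eIF2B, the exchange factor that reloads eIF2 with GTP, 0 (0.378). In the replicates' top regions the eEF group had 4, 2 and 4 bound genes in replicates 1, 2 and 3, and the eIF2 group 4, 5 and 3. The eIF2B genes had 0 in each. The groups are small, and the differences between them were not tested.

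**Figure D2:**
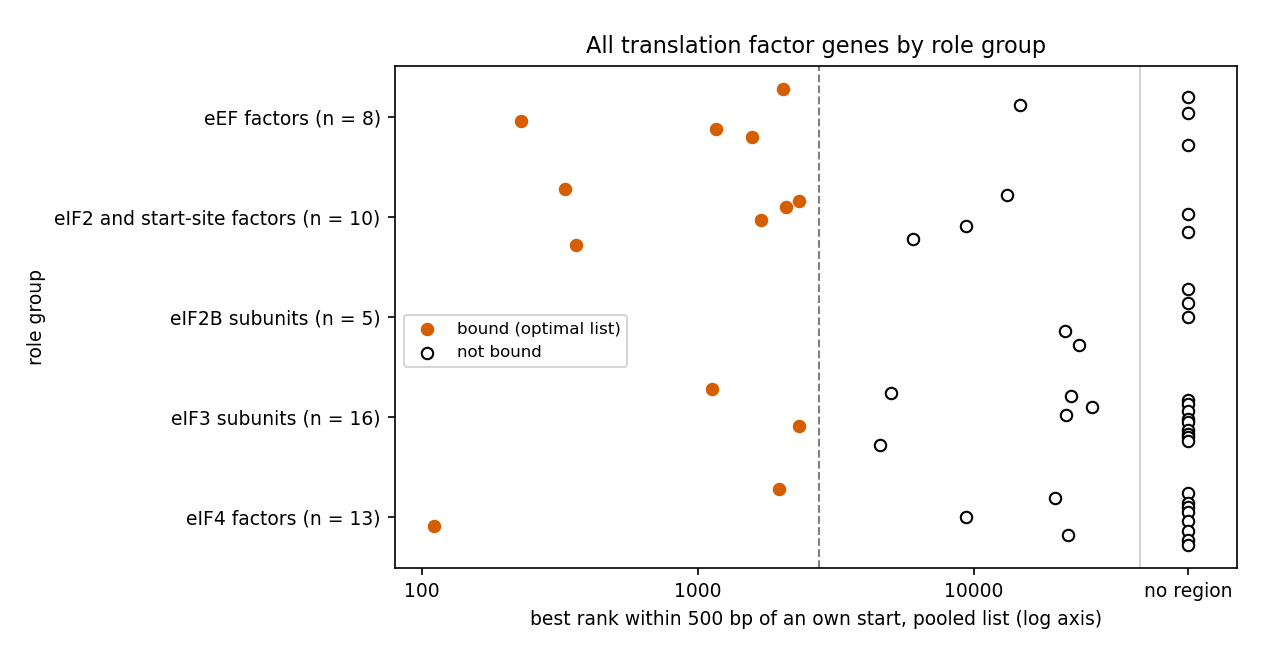
Best rank of a summit within 500 bp of an own start in the pooled list (x axis, log scale; genes with no such region stand right of the grey line) for all 52 genes in their 5 role groups; filled points are bound by the optimal list, and the dashed line marks rank 2756. Filled points lie from rank 111 to 2330, and the best open point is at 4593.

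The 13 bound members ranked between 111 and 2330 in the optimal list, with a median of 1576, against 1331 for the other bound genes. Only eIF4EHP, eEF1gamma, eIF1 and eIF6 lay in the strongest 689 peaks. The other 9 had ranks above 1000. All 13 had a q value of at most 0.000645. Within the replicates' full lists, 37 of the 39 possible member and replicate pairs had a matching region, with a summit within 150 bp. A match in the top regions was found in all 3 replicates for 5 members, in 2 replicates for 6 and in 1 replicate for 2. The same shares were not counted for the other bound genes. Of all 2756 optimal peaks, 1446 to 1703 had a match in the top regions of both members of a given pair of replicates.

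**Figure D3:**
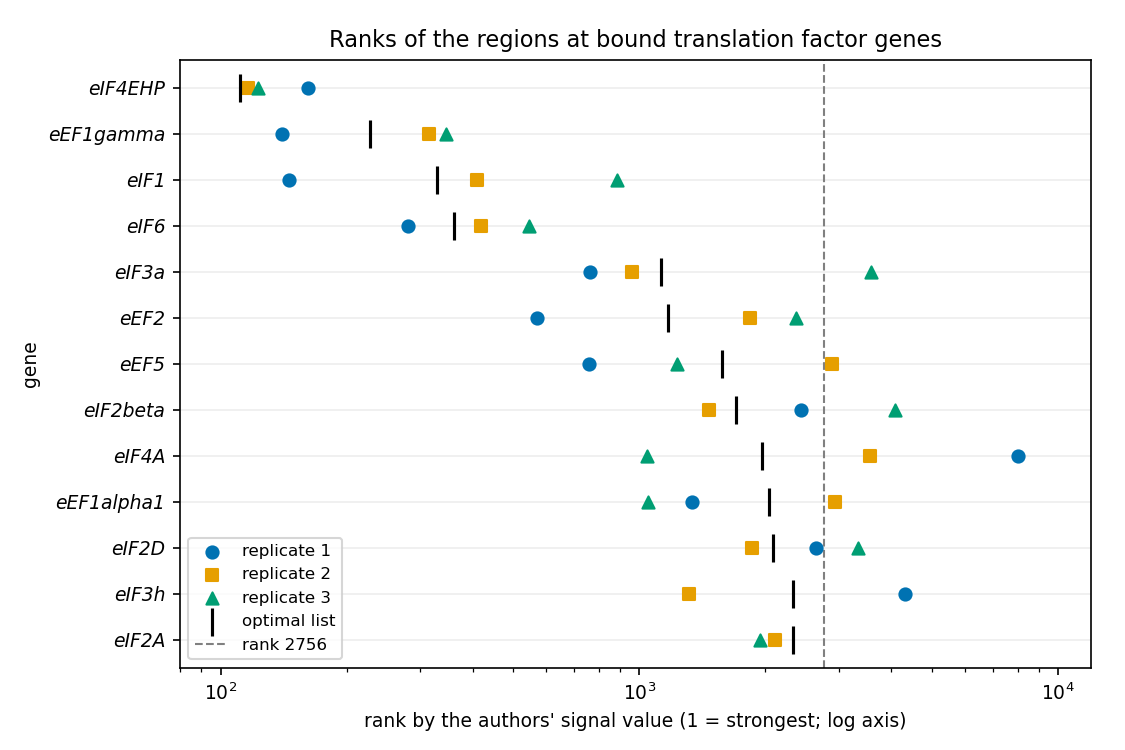
Rank by signal value (x axis, log scale, 1 is the strongest) of the region at each of the 13 bound genes in the optimal list (black bar) and of its match in each replicate's full list (points); the dashed line marks rank 2756. The points of eIF4EHP, eEF1gamma, eIF1, eIF6 and eEF2 all lie left of that line, as do both points of eIF2A, and each of the other 7 genes has at least 1 point right of it.

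Among the elongation factors, eEF1gamma (FBgn0029176), the scaffold subunit of the complex that recharges eEF1A with GTP, had the strongest summit. Its peak ran from 29220011 to 29220292 on 3R, with the summit at 29220169, 3 bp before the start. It ranked 228 in the optimal list and 140, 315 and 345 in replicates 1, 2 and 3 (mean 267 ± 111, SD, n = 3). Replicate 1 ranked it highest, and all 3 placed the summit 9, 12 or 27 bp upstream of the start. Another, stronger peak of rank 16 lay 5724 bp before this start, at the start of the non-coding gene lncRNA:CR31044, and is not counted here.

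The translocation factor gene eEF2 (FBgn0000559) had a summit 1 bp downstream of its nearest start, the internal one of its 2 starts, in the 5′ UTR. Its peak ran from 21681920 to 21682309 on 2L. It ranked 1168, and 571, 1841 and 2367 in replicates 1, 2 and 3 (mean 1593 ± 923, SD, n = 3). All 3 ranks fell in the top regions, with that of replicate 1 the highest. The gene eEF5 (FBgn0285952) encodes the hypusine-bearing factor also known as eIF5A. Its peak, from 24057604 to 24057993 on 2R, also had its summit 1 bp downstream of the nearest start. It ranked 1576, with 758, 2882 and 1233 in the replicates. Replicate 2 put it just outside its top regions. The peak at RpL12, a ribosomal protein gene whose start lies downstream of eEF5, was a separate one of rank 1336, 2585 bp from the start of eEF5.

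The main gene for the tRNA carrier eEF1A, eEF1alpha1 (FBgn0284245), was bound at an internal start, with the peak from 11891908 to 11892297 on 2R and the summit 19 bp before that start, in an intron of the longer transcripts. It ranked 2041, and 1336, 2933 and 1046 in replicates 1, 2 and 3. The replicate summits lay 79 and 36 bp upstream and 84 bp downstream, a wider spread than at eEF2. A further optimal summit, rank 2013, lay 1204 bp before this gene's 5′-most start. Its paralog eEF1alpha2 had no region within 500 bp of a start in the optimal list, the pooled list or replicate 3. In replicates 1 and 2 it had regions of ranks 12854 and 20645, both far below those of eEF1alpha1. The exchange factor genes eEF1beta and eEF1delta and the selenocysteine factor gene eEFSec were not bound.

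Of the 3 subunits of eIF2, only the gene of the beta subunit was bound. The peak of eIF2beta (FBgn0004926) ran from 12526821 to 12527210 on 3L with the summit 285 bp upstream of the start. It ranked 1702, with 2428, 1467 and 4080 in replicates 1, 2 and 3 (mean 2658 ± 1322, SD, n = 3). The gamma subunit gene had a pooled rank of 9395, and the alpha subunit gene eIF2alpha had no region within 500 bp in any list. The subunit genes of this 1 complex did not share a call.

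The gene of eIF1 (FBgn0035423), which holds the scanning ribosome in the open state, stood apart from the others in position. Its summit, in a peak from 3222880 to 3223107 on 3L, was 350 bp upstream and only 31 bp from the start of RpL28, a ribosomal protein gene that faces away from it. The peak ranked 329, and 146, 409 and 886 in replicates 1, 2 and 3. All were in the top regions, and the summits lay 335, 359 and 325 bp upstream, so each was close to RpL28. Within the same window the DRE printed above lay 57 bp from the summit on the side of eIF1.

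The gene eIF6 (FBgn0034915) encodes the factor that keeps the large subunit from joining too early. Its peak, the narrowest of the 13 at 212 bp, ran from 23850301 to 23850512 on 2R, and its summit was 109 bp upstream of the start and 80 bp from the start of a non-coding antisense gene, asRNA:CR45928. It ranked 361, and 280, 419 and 546 in replicates 1, 2 and 3 (mean 415 ± 133, SD, n = 3). Among members matched in all 3 replicates, only eIF4EHP and eEF1gamma had a smaller spread of ranks. The gene eIF2D (FBgn0041588), for a factor that can deliver tRNA without GTP, had a peak from 29151769 to 29152158 on 3R, 170 bp upstream at its summit. It ranked 2084, and 2638, 1853 and 3323 in the replicates. Replicate 3 placed it outside its top regions.

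The gene eIF2A (FBgn0037135), for an alternative carrier of initiator tRNA, came last of the bound members in the optimal list, but not by mean replicate rank. Its peak ran from 21824748 to 21825137 on 3L, with the summit 22 bp before the downstream one of its 2 starts and in the 5′ UTR of the longer transcript, and ranked 2330. It ranked 2114 and 1941 in replicates 2 and 3. Replicate 1 had no region within 150 bp of the summit, and its region of rank 9425 lay 160 bp downstream of a start. The other start factors eIF1A, eIF5 and eIF5B were not bound at a start. The 32320 bp gene eIF5B, for the factor that joins the subunits, had 2 intronic summits of ranks 1065 and 1793, 21971 and 21772 bp inside the gene from its nearest start.

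Of the eIF3 subunits, the genes of the a and h subunits were bound. eIF3a (FBgn0037249), the core scaffold of the complex, had a peak from 4433737 to 4434126 on 3R, with the summit 37 bp before its start and 33 bp from the start of CG1074, which is transcribed the other way. It ranked 1126, and 763, 962 and 3583 in replicates 1, 2 and 3. Replicate 3 stood apart, both in rank and in the position of its summit, 113 bp downstream of the start. eIF3h (FBgn0022023) had a summit 5 bp downstream of an internal start and 68 bp from the start of senju. Its peak ran from 5052580 to 5052969 on 2L. It ranked 2325, with 4307 (q = 0.0823) in replicate 1 and 1311 in replicate 2. Replicate 3 had no region within 150 bp of that summit. Its region of rank 3385 lay 17 bp from another start of eIF3h.

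The unbound eIF3 subunit genes were eIF3b, eIF3c, eIF3d1, eIF3d2, eIF3e, eIF3f1, eIF3f2, eIF3g1, eIF3g2, eIF3i, eIF3j, eIF3k, eIF3l and eIF3m. The 2 unbound members closest to the call in the pooled list were among them, eIF3m at rank 4593 and eIF3b at rank 4999, against rank 2330 for the last bound member. The eIF3d1 and eIF3g1 genes each had an optimal summit outside the distance used, 1317 bp upstream and 1344 bp downstream of the start, at the starts of GILT2 and Smyd3.

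In the eIF4 group, eIF4EHP (FBgn0053100), a relative of the cap-binding protein that represses certain mRNAs in the early embryo, had the highest rank of all members. Its peak ran from 24109016 to 24109362 on 3R and ranked 111, with 162, 116 and 123 in replicates 1, 2 and 3 (mean 134 ± 24.8, SD, n = 3). This was the smallest spread of ranks over 3 replicates. The summit lay between 2 genes that point away from each other, 189 bp from the start of eIF4EHP and 187 bp from that of CG18428, so it cannot be given to either. The replicate summits were 217, 185 and 302 bp upstream of eIF4EHP. The gene also held an intronic summit of rank 2301.

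The gene eIF4A (FBgn0001942), for the helicase that unwinds the mRNA leader, had its peak from 5982309 to 5982698 on 2L, with the summit 90 bp before an internal start and in an exon of longer transcripts. It ranked 1964, and 8006 (q = 0.251), 3553 and 1043 in replicates 1, 2 and 3, so that only replicate 3 had it in its top regions. Each replicate also had a region at the 5′-most start of eIF4A, of rank 3426 in replicate 1, 3600 in replicate 2 and 8678 in replicate 3, and 73, 40 and 21 bp from that start. The cap-binding protein genes eIF4E1, eIF4E3, eIF4E4, eIF4E5, eIF4E6 and eIF4E7, the relatives of eIF4EHP, were not bound. The best replicate rank among them was 8169, for eIF4E6 in replicate 2, and eIF4E4, eIF4E5 and eIF4E7 had no region within 500 bp in any list. The scaffold genes eIF4G1 and eIF4G2 and the helicase partners eIF4B, eIF4H1 and eIF4H2 were not bound either. Of all 39 unbound members, only eIF4H1 had a summit in a replicate's top regions within 500 bp, at rank 2572 in replicate 2 and 93 bp downstream of its start, with none in replicates 1 and 3.

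The eIF2B genes, eIF2Balpha, eIF2Bbeta, eIF2Bgamma, eIF2Bdelta and eIF2Bepsilon, had no optimal summit within 500 bp. The nearest strong one was the peak of rank 17, with ranks 9, 24 and 33 in replicates 1, 2 and 3, whose summit on X lay 682 bp upstream of eIF2Bbeta and 37 bp from the start of Ugalt. It is the first unbound member beyond the distance used, and eIF1 at 350 bp is the last bound one within it. In the full pooled list, where 43.8% of all protein-coding genes had a region within 500 bp of a start, 14 of the 39 unbound members (35.9%) had one, against 38.3% of the other unbound coding genes. There were 10 unbound members (25.6%) with none in any full list, against 39.4% of the other unbound coding genes. The 10 were eIF2Bbeta, eIF2alpha, eIF3d1, eIF3d2, eIF3f1, eIF3g1, eIF4E4, eIF4E5, eIF4E7 and eIF4H2. Of these, 4 were among the 7 members on X, where no member was bound and 7.4% of the other coding genes were. The share of other X genes with no region in any full list was not counted.

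The summits of the bound members lay close to the starts. In the optimal list 7 of 13 (53.8%) were within 50 bp of the gene's nearest own start, against 208 of 1245 other bound genes (16.7%), and the median distance was 37 bp, against 141 bp. Relative to that nearest start, 10 of the 13 summits were upstream and 3 were 1 to 5 bp downstream. Of the 10, those of eIF4A, eEF1alpha1 and eIF2A lay inside a longer transcript of the gene. When only the 5′-most start of each gene was used, 4 rather than 7 were within 50 bp, since the summits of eEF1alpha1, eIF3h and eIF2A lay at internal starts. Bound ribosomal protein genes had a like position, with 47 of 61 summits (77%) within 50 bp and a median distance of 25 bp.

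**Figure D4:**
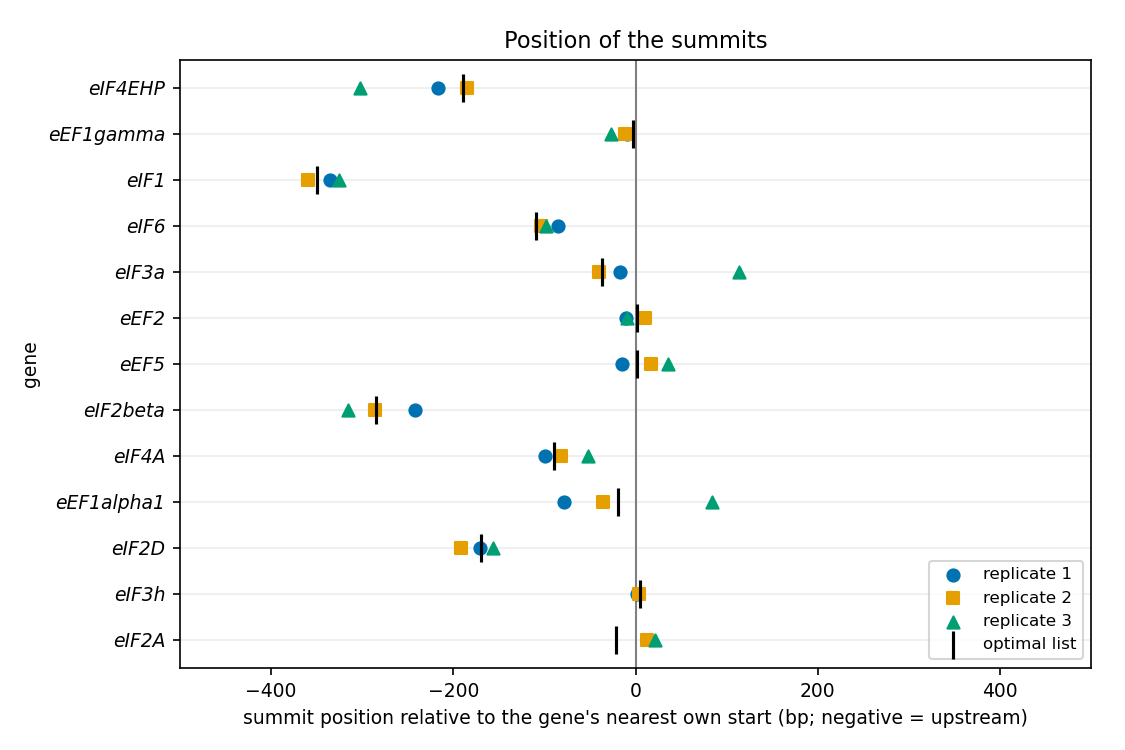
Position of the summit relative to the gene's nearest own start (x axis, bp, negative is upstream) at the 13 bound genes in the optimal list (black bars) and in the replicates (points). The summits of eEF1gamma and eEF2 lie within 27 bp of the start in all 3 replicates, and those of eIF1 between 325 and 359 bp upstream.

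Some of these summits cannot be given to 1 gene. At 4 of the 13, eIF4EHP, eIF1, eIF3a and eIF3h, a start of another protein-coding gene also lay within 500 bp of the summit, and at the first 3 of them the other gene's start was the nearer. With each summit counted only for the gene with the nearest coding start, 10 members were bound, against a number of 3.59 from the length deciles. By that count 7.14% of all coding genes were bound. Head-to-head pairs, in which a neighbour on the other strand starts within 500 bp, were about as common in bound members, 5 of 13, as in unbound ones, 15 of 39. How often other bound genes share a summit or stand in such pairs was not counted.

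The DRE was more frequent at the members' starts than at those of all coding genes, and about as frequent in bound as in unbound members. In the 300 bases from 250 before to 50 after the 5′-most start, it was found in 14 of 52 members (26.9%), against 9.36% of all coding promoters, and the share was 30.8% in the 13 bound members and 25.6% in the 39 unbound ones. The bound ones with a DRE were eEF1gamma, eIF3a, eIF4A and eIF6. Ribosomal protein promoters held a DRE in 30.1%. These windows stand at the 5′-most start, whereas eIF4A, eEF1alpha1, eEF2, eIF3h and eIF2A had their optimal summit at an internal start. With only the 5′-most start used, eIF4A and eEF1alpha1 were not bound. The E-boxes GCAGCTG and GCAGGTG, sought on both strands, were in 3 members (5.77%), of which 1 was bound (eIF3h), against 8.7% of all coding promoters. A CTTT beginning within 10 bases of the start on the gene's strand, the core of the pyrimidine-rich initiator, was in 9 members (17.3%), against 10.8% of all coding genes and 51.6% of ribosomal protein genes.

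The summits of the members were also searched, 13 windows in all. Within 100 bp of them there was no GCAGCTG or GCAGGTG, whereas 15.7% of the 1127 other promoter summits and 19.6% of the 1616 summits away from any start held one. A DRE was found at 4 of the 13, eEF1gamma, eIF1, eIF3a and eIF2A, against 3.11% of the other promoter summits and 0.186% of the summits away from starts. The DRE of eIF1 was centred 293 bp before its own start. Unbound members also held a DRE within 100 bp of the 5′-most start in 20.5%, so the contrast is not particular to the summits. Any E-box CANNTG, of which GCAGCTG and GCAGGTG are special cases, was at 7 of the 13, against 67.8% of the other promoter summits. The match GAGAG of the factor Trl was at 2 of the 13, against 31%. These are letters in a window and were not tested.

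Other parts of the translation machinery differed widely in the same count. Of the 93 cytoplasmic ribosomal protein genes 61 (65.6%) were bound, against a number of 5.12 from the length deciles, with ranks from 43 to 2640; the strongest were RpS27, RpL7 and RpS10b. In the replicates' top regions that share was 63.4% ± 5.69 (SD, n = 3), against 19.2% ± 1.92 for the translation factor genes, and the replicate values did not overlap. Of the 20 cytoplasmic tRNA synthetase genes 4 (20%) were bound, led by IleRS at rank 871, AsnRS at 1678 and GluProRS at 1724, where the deciles gave 1.89. Of 20 other translation genes, such as release factors, eIF2 kinases and cap-binding regulators, 3 (15%) were bound, larp at rank 50, the eIF2 kinase gene Gcn2 at 963 and Thor, the inhibitor of eIF4E, at 1217, where the deciles gave 2.4. Of the 73 mitochondrial ribosomal protein genes 8 (11%) were bound, led by mRpS10, mRpS23 and mRpL41, where the deciles gave 3.43. None of the 9 mitochondrial translation factor genes and none of the 48 proteasome subunit genes was bound, where the deciles gave 0.655 and 3.17.

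**Figure D5:**
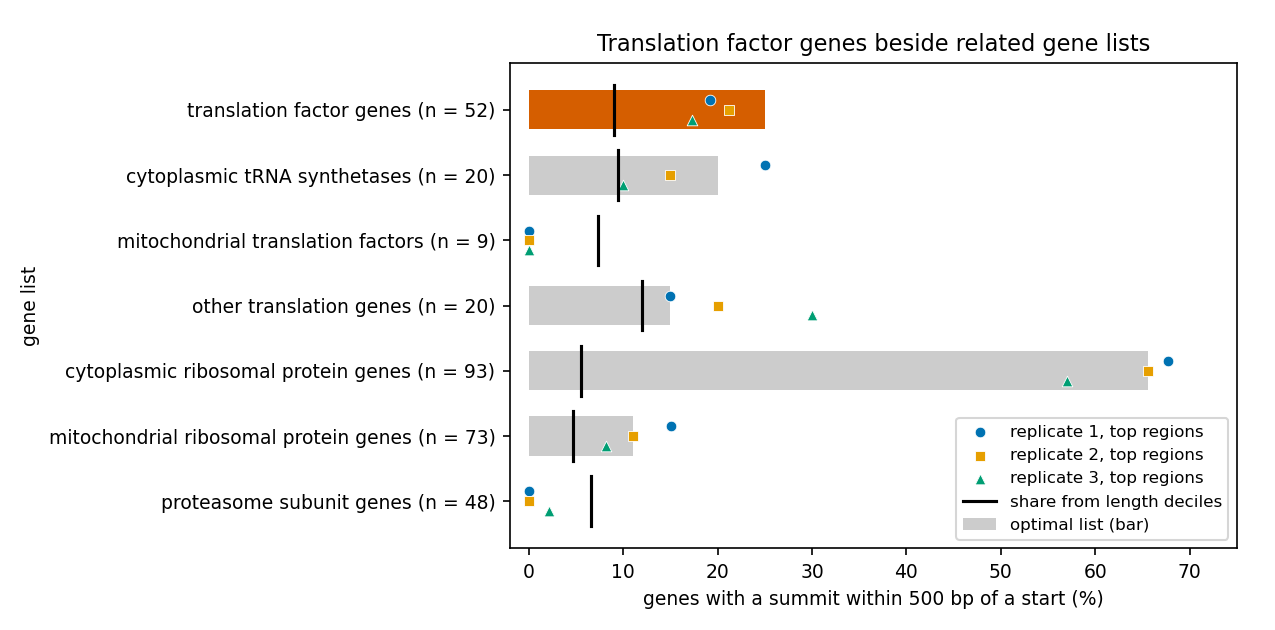
Share of genes with a summit within 500 bp of an own start (x axis, percent) for the translation factor genes (top bar) and 6 related lists, in the optimal list (bars) and in each replicate's top regions (points); the black line is the share given by the length deciles. The bar of the translation factor genes, 25%, lies between that of the ribosomal protein genes, 65.6%, and that of the proteasome genes, 0%.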

How the data were processed

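Per the labels, ChIP-seq of GFP-tagged Ac was done in 3 replicates, on chromatin sonicated to 200 to 800 bp. The authors deposited lists of regions, per the deposited notes: for each replicate and for the pooled replicates, 30000 regions called with a control alignment, and an optimal list of 2756 peaks, derived from those lists through the irreproducible discovery rate, a comparison of ranks between replicates. The sources used here name neither the caller and its version nor the threshold. The deposited signal value has no stated scale and served only for ranks within a list, with ties broken by position; in the pooled list the members' ranks equal those of the optimal list. The deposited −log10 q value gave the q values. The files hold no read counts, so the depth of each replicate is unknown and no interval is given. The dm3 lists were not used here.

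Gene starts were all annotated transcript starts in Ensembl release 115 (FlyBase annotation 6.54), set against dm6. As a check of the build, 99.6% of plus-strand coding genes had ATG at their first coding base in the release 6 genome. A replicate's top regions were its 2756 strongest. Regions of different lists matched when their summits lay within 150 bp, with the strongest taken where several did. The number from the length deciles sums, over members, the bound share of the other coding genes in the member's decile of 10. There being 1 group, no test was run, and all values are counts, ranks and means ± SD over the 3 replicates. The calling and decile steps were tested on simulated summits. Alternatives covered the distance, the starts used, the list length, the strata, the matching and leaving out each replicate. Every bound member is named with its replicate values, and unbound ones by group. The members, lists and motifs were chosen with earlier results of these data known. Of 50 listed related genes, 1 symbol (Tor) had no single match. Calculations used Python 3.11.15, pandas 2.3.3 and NumPy 2.4.6.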

Additional observations from a re-analysis of the deposited data

How the results depend on the processing

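The alternatives other than leaving out a replicate numbered 9. Under 8 of them the count of 13 bound members stayed within 1.5 times its value, with 10 to 17 bound. Of all coding genes, 5.08% to 19% were bound under the same settings. The 17 came from counting summits anywhere in the gene plus 2000 bp, not only at a start. There 19% of all coding genes were bound, and the ratio was the lowest, 1.76. For no length strata and for 20 strata, part of these 8, the count was fixed in advance. Strata change only the number from the deciles. The count was 4 with the 1000 strongest peaks, a shorter list, where the deciles gave 1.88 and 3.54% of all coding genes were bound. The ratio to the number from the length deciles ran from 1.76 to 3.59 over all 12 alternatives. A version without 1 replicate keeps only peaks in the top regions of both others, 1446 to 1703 peaks, and by that construction gave fewer. Bound members numbered 6 to 8 (6 without replicate 1), where the deciles gave 2.75 to 3.01. Of all coding genes 5.1% to 5.61% were bound in these versions. There were 3 to 4 summits within 50 bp and 2 to 3 shared promoters. The tRNA synthetase genes had 1 to 3 bound, where the deciles gave 1.09 to 1.2. Without replicate 1 these genes had 1 bound, against 1.09. The mitochondrial ribosomal protein genes had 4 to 6 bound, where the deciles gave 2.1 to 2.39. eEF1gamma, eEF2, eIF1, eIF4EHP and eIF6 were bound in each such version. The mean of 10 members in the replicates' top regions was 5.33 with 1000 regions, 15.3 with 5000 and 17.3 at q of at most 0.05. The length deciles gave 1.84, 7.29 and 9.52 for these settings in turn, so the ratios were 2.89, 2.1 and 1.82. With only the 5′-most start, 4 summits lay within 50 bp. With a distance of 1000 bp, 7 bound members shared a promoter. Within 100 bp of the start, 1 member (1.92%) held GCAGCTG or GCAGGTG, against 6.31% of all coding genes. GAGAG was there in 5 members (9.62%), against 22.5%. In the 300-base window GAGAG was in 8 members (15.4%), against 29.7%. A q threshold 10 times below the largest q of the optimal list, 0.000968, was not run, as no peak had so small a q. Taking the nearest matching region in place of the strongest was added after seeing the data, and gave the same median rank. No paired analysis was possible because there is 1 group. Unknown depth limits every rank: a member without a region may lie below what the data could show.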
